A study of Mus musculus with 8 samples.

Results

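The protein components of the cytosolic ribosome were followed gene by gene in 2 regions of the mouse brain. The set was taken by gene symbol. It holds the rows whose symbol is Rpl or Rps followed by a number, with the usual letter or paralog endings, together with Rplp0, Rplp1, Rplp2 and Rpsa. Pseudogenes and the Rps6k kinases were left out, and a gene had to reach 50 counts summed over the 8 libraries. Of the 33885 gene symbols in each count table, 82 matched and 78 reached the minimum, 31 of the small subunit and 47 of the large subunit. Below the minimum were Rpl13 and Rpl35 with 0 counts each, Rpl10l with 1 and Rpl39l with 8. Closest above it were Rps10 with 252 counts, Rpl3l with 430 and Rps27l with 1060.

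Total RNA came from adult male mice of the inbred strain C57Bl6J, in 4 groups of 2 libraries. The nucleus accumbens (NAc) was taken 15 min after place-preference conditioning with intraperitoneal cocaine at 7.5 mg/kg, and from mice left in the home cage. The medial prefrontal cortex (mPFC) was taken 15 min after social defeat by an aggressive CD1 male, and from home-cage mice. The titles of the mPFC libraries carry the label WT (wild type) in both groups, and those of the NAc libraries do not. The first and second library of an mPFC group are named by the order of their titles. Handling, the apparatus and cocaine itself cannot be told apart in the NAc comparison, because its controls stayed in the home cage, and attack and transfer cannot be told apart in the mPFC comparison. Whether 2 libraries of a group come from different mice, or from pooled tissue, is not in the labels, and a p-value here speaks only for how far these libraries spread.

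Each cytosolic ribosome is built from 1 copy of most of these proteins and from ribosomal RNA, and the stalk proteins Rplp1 and Rplp2 are present in more copies. Many of the mRNAs begin with a 5′ terminal oligopyrimidine (TOP) tract, a C followed by a run of pyrimidines. Through this tract mTOR signalling and the cap-binding protein Larp1 control their translation and stability. In neurons, ribosomal protein mRNAs are found in the cell body and also in dendrites and axons, and phosphorylation of the protein Rps6 is widely used as a marker of neuronal activity. A change in translation of these mRNAs need not change their level, and only the level was measured here.

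The pyrimidine tracts could be looked for in RefSeq windows on GRCm38.p6, which run from 250 bases before to 50 bases after an annotated start. A tract was called where a C was followed by pyrimidines for at least 6 bases in all, beginning between 10 bases before and 20 bases after the start, on the gene's own strand. A run that began further upstream was counted from its first C within this range. Of the 78 genes, 58 had a window, and 35 of those (60.3%) had a tract at 1 or more of their starts. Among all 27025 symbols with a window the share was 28%, and among the 13290 of them tested in mPFC it was 29.3%. Genes on which the results turn are shown, each from 20 bases before the start to 24 bases after it, with the tract in capitals.
Rps6, chr4:86857343-86857387, minus strand: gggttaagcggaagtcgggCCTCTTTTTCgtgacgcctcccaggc
Rps27, chr3:90213624-90213668, minus strand: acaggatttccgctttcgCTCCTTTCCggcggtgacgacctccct
Rps27l, chr9:66946066-66946110, plus strand: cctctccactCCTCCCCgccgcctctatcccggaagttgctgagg
Rpl22l1, chr3:28805488-28805532, plus strand: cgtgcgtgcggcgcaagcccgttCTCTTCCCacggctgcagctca
Rpl3l, chr17:24727806-24727850, plus strand: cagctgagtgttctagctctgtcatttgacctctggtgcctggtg
Rplp2, chr7:141447631-141447675, plus strand: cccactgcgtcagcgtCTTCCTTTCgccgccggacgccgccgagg
Rpl38, chr11:114668560-114668604, plus strand: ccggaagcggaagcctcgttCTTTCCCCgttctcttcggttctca
Rps21, chr2:180257359-180257403, plus strand: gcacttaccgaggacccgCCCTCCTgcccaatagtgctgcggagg
Rps26, chr10:128626482-128626526, minus strand: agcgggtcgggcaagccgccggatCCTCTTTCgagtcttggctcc
The tract covered 10 bases in Rps6, the longest of those shown, and 7 bases in Rps27l and Rps21. In Rps27l the pyrimidines reach further upstream, and only the part from 10 bases before the start was counted and capitalized. In Rpl38 it began on the first base of the annotated start, and in Rps6 on the base before it. Rpl3l, the paralog of Rpl3 known from striated muscle, had none in this window. Such a match describes the letters of the window and does not show where transcripts begin in these tissues.

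Library totals ran from 111901829 to 179479978 counts. The NAc libraries stood apart by the number in their titles. Mean log2 level of 12 striatal projection neuron markers minus that of 9 cortical glutamatergic markers was 1.49 and 2.17 in the NAc libraries numbered 1 and -0.68 and -0.81 in those numbered 2, against -4.46 to -4.39 in mPFC. Summed striatal marker level was 908.4 to 2543 CPM (library-size-scaled counts, with TMM factors) after cocaine, 830.5 to 3150 CPM in NAc home cage, and 215.5 to 229.8 CPM over the 4 mPFC libraries. No marker of either list was at 0. In a bulk tissue sample, fewer cells of a type and less RNA per cell cannot be told apart.

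The 78 genes held 0.329% ± 0.0045 (SD, n = 2) of all counts after cocaine, 0.328% ± 0.0043 in NAc home cage, 0.335% ± 0.012 in mPFC home cage and 0.35% ± 0.021 after defeat. By library, the share was 0.3254% and 0.3318% after cocaine, 0.3247% and 0.3308% in NAc home cage, 0.3269% and 0.3438% in mPFC home cage, and 0.3656% and 0.3353% after defeat. The first defeat library was the highest of the 8, and the other 7 lay in a narrow band that both regions and all groups share.

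Levels of different genes were compared per kb of merged exons from GENCODE M21 (GRCm38). The median over the 78 genes was 17.9 CPM per exon kb, with a 10th percentile of 4.21 and a 90th percentile of 57.0. Rps15, a small subunit protein, was highest at 178 CPM per exon kb, followed by the stalk protein Rplp1 at 123 and by Rpl4, which lines part of the peptide exit tunnel, at 98.0. Rplp1 lies at chr9:61913284-61914542 and Rpl4 at chr9:64173375-64178666. Lowest were Rps27l at 1.15, Rpl3l at 0.231 and Rps10 at 0.0983 CPM per exon kb. A ribosome needs Rps10, yet its row was at 0.180 and 0.280 CPM after cocaine, 0.198 and 0.304 CPM in NAc home cage, 0.236 and 0.226 CPM in mPFC home cage, and 0.266 and 0.128 CPM after defeat. GENCODE M21 lists a read-through gene, RPS10-NUDT3, on the same strand over 4805 bases of Rps10, and the part of this overlap in the level was not tested.

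**Figure D1:**
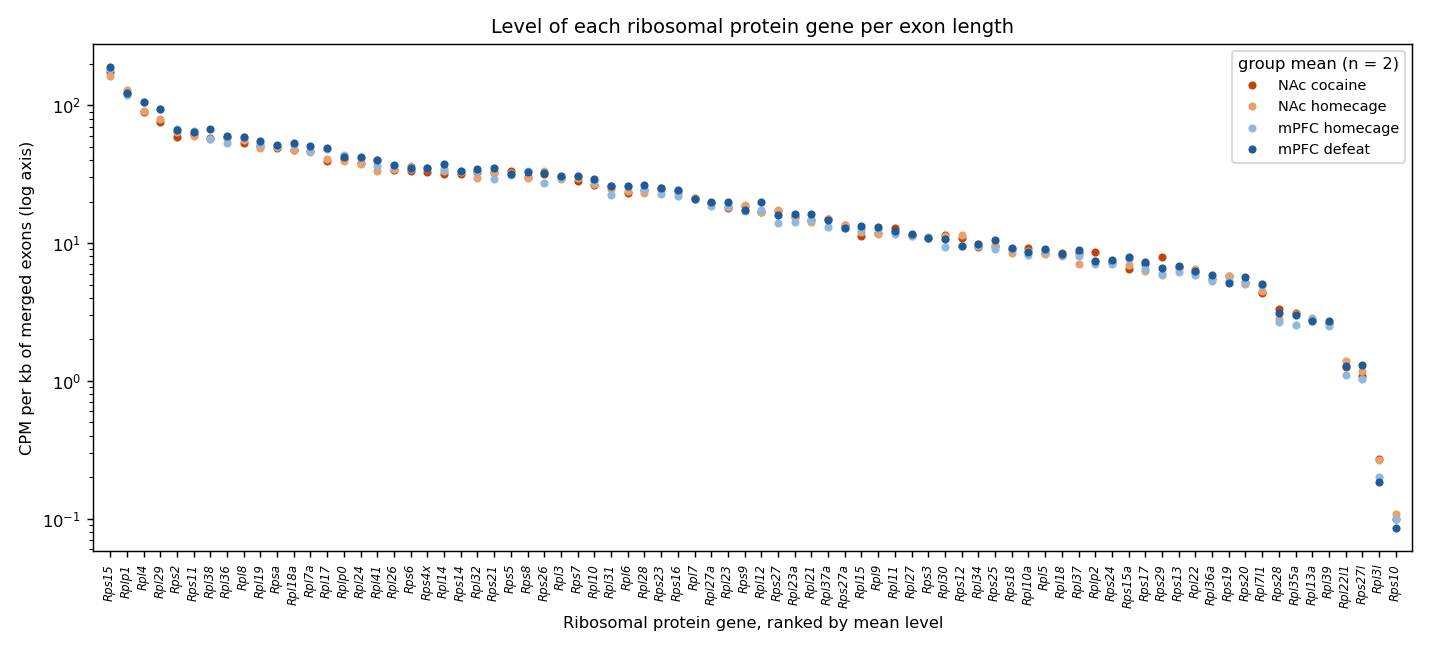
Level of each of the 78 ribosomal protein genes, as the mean CPM per kb of merged exons in each of the 4 groups (n = 2 libraries each, log axis), ordered by the mean over all libraries. The 4 group means lie close together for nearly every gene, between Rps15 at 178 and Rps10 at 0.0983 CPM per exon kb, with a steep drop after Rpl39 to Rpl22l1, Rps27l, Rpl3l and Rps10.

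The stalk proteins, which recruit elongation factors to the ribosome, had unequal mRNA levels per exon kb. Over the 8 libraries Rplp1 was at 123, Rplp0 at 41.6 and Rplp2 at 7.63 CPM per exon kb. Merged exons cover 499 bases in Rplp1, 1659 in Rplp0 and 2072 in Rplp2. Before division by length, Rplp0 was at 69.0, Rplp1 at 61.6 and Rplp2 at 15.8 CPM. Among small subunit genes, Rpsa, also known as a laminin receptor, was at 50.3, Rps6 at 34.8, the X-linked Rps4x at 34.6 and Rps14 at 32.9 CPM per exon kb. Rps27 was at 16.1 and Rps27a, which is made as a fusion with ubiquitin, at 13.2. Among large subunit genes, Rpl3, which reaches towards the catalytic centre, was at 30.1 and Rpl10, one of the last proteins to join the subunit, at 27.7 CPM per exon kb. The RNA-binding protein Rpl22 was at 6.19 and Rpl39, a small protein of the exit tunnel, at 2.63. Rps14 shows how far such levels depend on the length used. Its annotated span of 31449 bases is the longest of the set, and per kb of span its rank fell from 22 to 68.

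Paralogs were present at a fraction of their main gene in both regions. Per exon kb, Rpl22l1 was at 18.2% to 22.9% of Rpl22 over the 8 libraries, Rpl7l1 at 19.9% to 25% of Rpl7, and Rps27l, a p53-responsive gene, at 5.22% to 9.22% of Rps27. Rpl3l was at 0.499% to 1.13% of Rpl3. The testis paralogs Rpl10l and Rpl39l had 1 and 8 counts over the 8 libraries. Rpl3l, with 430 counts over the 8 libraries, differed by library number in NAc. It was at 0.562 CPM in the cocaine library numbered 1 and 0.330 CPM in that numbered 2, at 0.548 and 0.333 CPM in the home-cage libraries, and at 0.235 to 0.372 CPM in mPFC. None of the 1593 windows of 50 bases in Rpl3l transcripts occurs in a transcript of another gene.

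Sharing of sequence with other genes, pseudogenes among them, is wide. Over the 78 genes, a median of 23.1% of the 50-base windows of a gene's transcripts also occurred in transcripts of other genes, ranging from 0 in Rpl3l to 81.1% in Rpl36, and a median of 8 pseudogenes shared a window with a gene. More than 50% of windows were shared in 5 genes, among them Rplp1 and Rpl36. How reads with several alignments were counted is not given in the sources used here, so levels of these genes are uncertain. A total of 55 small nucleolar RNA (snoRNA) genes lie inside 28 of the 78, and all 55 snoRNA rows had 0 counts in every library. An opposite-strand protein-coding gene overlaps 14 of the 78, among them Rpl3, Rps14 and Rpl12, and whether counting used strand is not given either.

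Within the set, levels varied little between libraries. The median coefficient of variation over the 8 libraries was 6.85% for the 78 genes, beside 9.83% for 7479 other genes of similar level. Rps3, a small subunit protein at the mRNA entry, ran from 47.4 to 51.0 CPM, with a coefficient of 2.54%, and Rpl34 from 24.4 to 26.5 CPM, with 2.75%. At the other end stood Rpl3l with 30.5%, Rps10 with 25.3%, Rps29 with 18.8% and Rplp2 with 18.1%. Rps29 was at 6.58 CPM in the second cocaine library and at 3.83 to 4.61 CPM in the other 7. In Rps29 1 library stood off. In Rplp2 the second home-cage libraries of NAc and mPFC and the second defeat library were the 3 lowest, at 11.3, 12.9 and 13.7 CPM, and the other 5 were at 16.2 to 19.5 CPM.

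**Figure D2:**
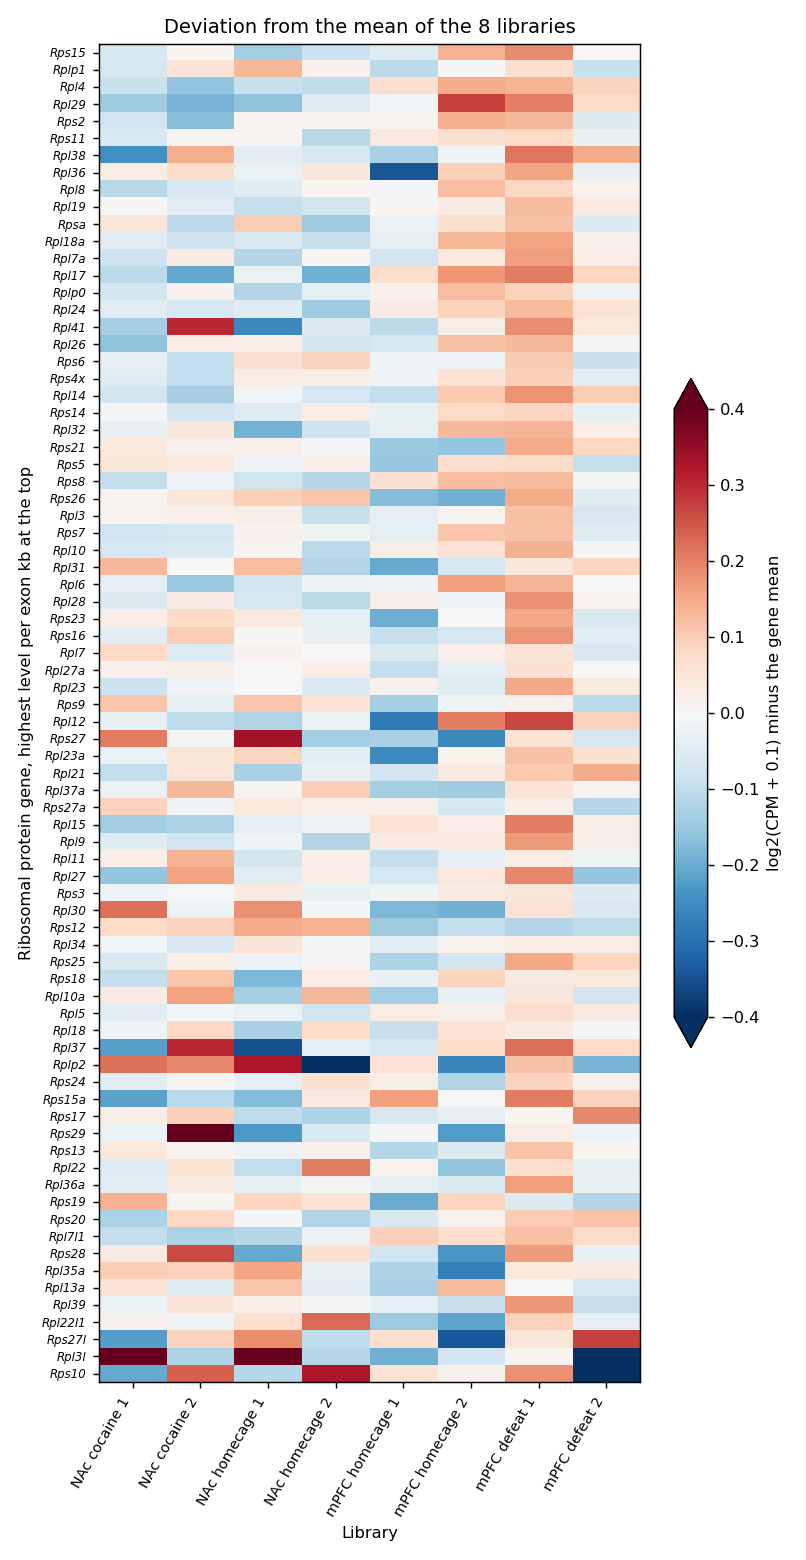
Deviation of each of the 78 genes in each library from its own mean over the 8 libraries, as log2(CPM + 0.1), with red above and blue below the mean, genes ordered by level per exon kb. The column of the first defeat library is red for most genes, and it held the highest value for 42 of the 78, while Rpl3l and Rps10 at the bottom have the strongest colours.

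The first comparison asked how social defeat left these mRNAs in mPFC. None of the 78 passed. In the edgeR quasi-likelihood fit over all genes, 127 of 18027 genes reached an adjusted p (Benjamini-Hochberg) under 0.05, which is 0.704% of genes tested, and 0 of the 78 did, the smallest adjusted p being 0.13. At an unadjusted p under 0.05, 11 of the 78 were higher and 0 lower, beside 3.79% and 3.36% of all genes, and by DESeq2 0 passed and 9 were under an unadjusted 0.05. Shares of all genes at an unadjusted p are from edgeR, and none was taken for DESeq2 or limma-voom, here or below. The changes leaned one way. The log2 fold change was positive in 65 of 78 genes, beside 48.9% of all genes, with a median of 0.07 beside 0.00 (-0.0028) over all genes. Both defeat libraries were above both home-cage libraries in 26 of the 78 and below in 0, beside 16.4% and 17.8% of all genes.

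The most positive changes were in Rps27l, Rps21 and Rpl38. Rps21, a small subunit protein, was at 23.5 and 23.4 CPM in home cage and at 29.0 and 27.6 CPM after defeat. Its groups did not overlap, with a log2 fold change of 0.27 (SE 0.08, edgeR adjusted p = 0.13). Rpl38, known for its part in translation of Hox mRNAs, was at 29.5 and 31.9 CPM in home cage and at 37.5 and 35.8 CPM after defeat. Its log2 fold change was 0.26 (SE 0.08, edgeR adjusted p = 0.158), again without overlap. Rps27l was at 0.980 and 0.715 CPM in home cage and at 0.965 and 1.15 CPM after defeat, and these groups overlapped (log2 fold change 0.31, SE 0.20, edgeR adjusted p = 0.868). The tract at the start of each of these genes is among those shown above, and 60.3% of the genes with a window had one. Of the most negative genes after defeat, Rps10 and Rpl13a also had a tract, and Rpl3l had none.

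Rps26, which lies at the mRNA exit channel, was at 42.4 and 41.9 CPM in home cage and at 53.1 and 46.3 CPM after defeat, a log2 fold change of 0.24 (SE 0.08, edgeR adjusted p = 0.234). Rps27 was at 15.2 and 13.9 CPM and at 17.3 and 15.9 CPM (log2 fold change 0.19, SE 0.09). Rpl22l1 was at 2.25 and 2.15 CPM and at 2.68 and 2.45 CPM (0.22, SE 0.14). In these 3 genes, too, both defeat libraries were the higher ones, and none passed. Beside Rps21, Rpl38, Rps26 and Rps27, the genes under an unadjusted 0.05 were Rpl12, Rpl23a, Rpl30, Rpl31, Rpl35a, Rpl37a and Rps25, with log2 fold changes from 0.18 to 0.24.

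Most of the other genes chosen for their role stayed near 0. Rps6 was at 54.4 and 54.3 CPM in home cage and at 59.2 and 51.8 CPM after defeat, so that the defeat libraries lay on either side (log2 fold change 0.03, 95% interval -0.13 to 0.19). Rpsa (0.02), Rps14 (0.00), Rps4x (0.01), Rps27a (-0.02), Rpl3 (0.04), Rpl10 (0.03), Rpl7l1 (0.02) and the stalk genes Rplp0 (-0.03), Rplp1 (0.05) and Rplp2 (0.07) had log2 fold changes smaller than their standard errors. Rpl22 (0.09, SE 0.09) and Rpl39 (0.11, SE 0.12) were within about 1 standard error of 0. The most negative were Rps10 (-0.24, SE 0.36), Rpl3l (-0.10, SE 0.30) and Rpl13a (-0.03, SE 0.11), a protein also known for silencing of inflammatory mRNAs, with groups that overlapped. For 75 of the 78 the 95% interval lay within a 1.5-fold change in either direction, beside 78.1% of all genes, and for all 78 within 2-fold, beside 89.6%. The 3 wider ones were Rps10, Rpl3l and Rps27l, the lowest of the set per length.

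**Figure D3:**
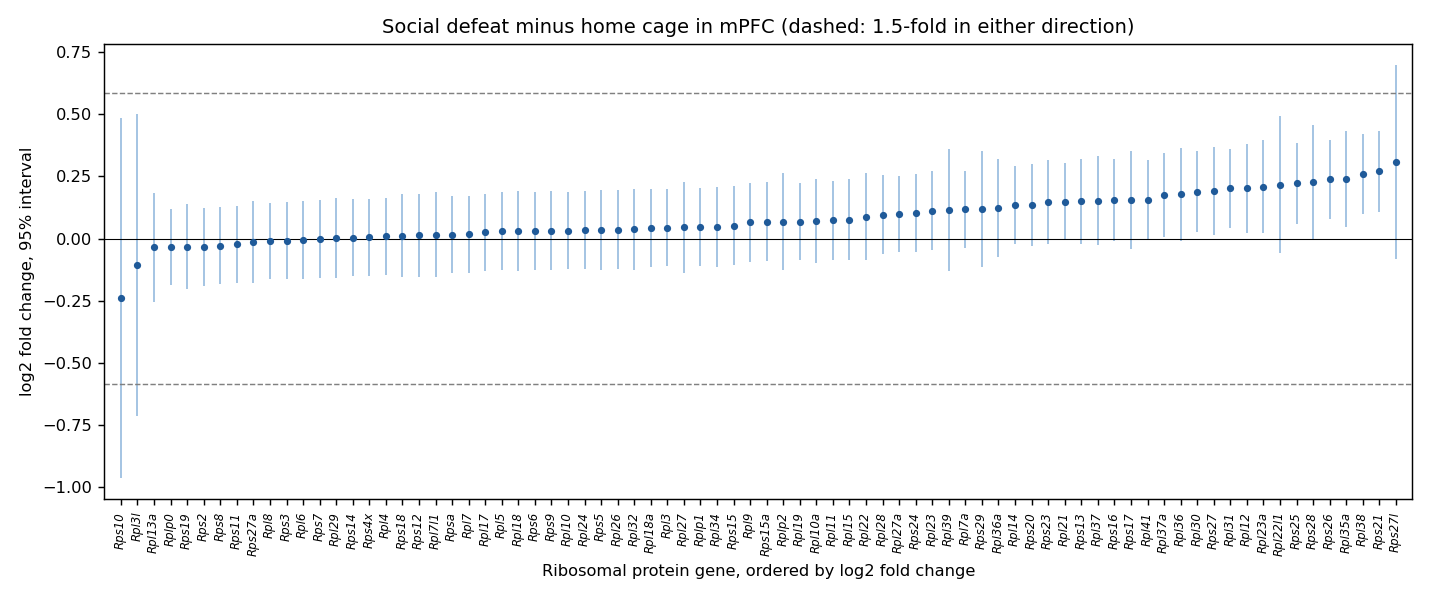
Log2 fold change of social defeat against home cage in mPFC for each of the 78 genes (points) with its 95% interval from the edgeR fit (bars, 4 libraries), in order of size, with dashed lines at 1.5-fold. The points run from Rps10 at -0.24 to Rps27l at 0.31 with 65 above 0, and 75 of the intervals lie between the dashed lines.

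The lean towards higher values differed with the libraries kept. Over the 75 genes above 1 CPM, the median deviation from a gene's own mean was 0.12 in the first defeat library and between -0.05 and 0.02 in the other 7 (log2). The first defeat library was the highest of the 8 for 42 of the 78 and the lowest for 0. Without it, the median log2 fold change was 0.01 (0.0087) and 41 of 78 were positive. Leaving out the first home-cage library, the lowest of the 8 by median deviation, gave 0.04 with 46 positive. Without the second defeat library it was 0.13, with 77 of 78 positive. Without the second home-cage library the median was 0.09 with 70 positive, and 3 of the 78 passed, among 184 genes in all. These were Rpl12 (log2 fold change 0.46, edgeR adjusted p = 1.88e-05), Rpl36 (0.41, 0.00179) and Rpl38 (0.31, 0.0338). Rpl12 was at 52.2 and 73.3 CPM in the 2 home-cage libraries and at 76.4 and 67.7 CPM after defeat, and Rpl36 at 17.3 and 23.4 and at 24.5 and 21.5 CPM. In both genes the first home-cage library was the lowest of the 4, and the second lay between the 2 defeat libraries.

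Other gene families and genes of different length also deviated in the first defeat library. Its median deviation was 0.11 for 74 mitochondrial ribosomal protein genes and 0.11 for 83 respiratory complex genes, taken by symbol and not all of them subunits. It was 0.09 for 16 other TOP mRNAs and 0.08 for 29 ribosome biogenesis genes. With the 78 genes left out, protein-coding genes spanning up to 5 kb (1058 genes) had a median deviation of 0.11 in it, those from 5 to 20 kb 0.07, those from 20 to 100 kb 0.00 (0.0032) and those over 100 kb -0.13. The 78 genes span a median of 3328.5 bases. Span classes spread in other libraries too. In the first NAc home-cage library they ran from -0.10 for the shortest genes to 0.11 for the longest. The median deviation of the ribosomal protein genes there was -0.02. In the second mPFC home-cage library they ran from 0.08 to -0.08, and the ribosomal protein genes were at 0.02. Globin genes also moved with defeat. Hba-a1, Hba-a2 and Hbb-bs, the 3 tested of 5 blood genes, passed as higher, while Hbb-bt was too low to be tested and Alas2 was at 0 in every library. Their summed level was 19.5 to 19.7 CPM in home cage and 53.0 to 58.3 CPM after defeat. Oligodendrocyte markers had negative log2 fold changes in 8 of 8, with 0 passing in the edgeR test, 5 at an unadjusted p under 0.05, and a summed level of 1204 to 1441 CPM in home cage and 1065 to 1168 CPM after defeat, with none at 0. Meningeal fibroblast markers had positive log2 fold changes in 5 of 5 (median 0.19), with 0 passing and 1, Dcn, at an unadjusted p under 0.05, and a summed level of 15.4 to 24.7 CPM in home cage and 21.3 to 24.6 CPM after defeat. Of 3 tested choroid plexus and ependyma markers of 4, Ttr (1.02) and Kl (0.43) were higher at an unadjusted p under 0.05 and 0 passed, with a summed level of 4.47 to 5.01 CPM and 4.83 to 6.16 CPM. No marker of these lists was at 0. The part of gene length or of any of these cell types in the ribosomal protein values was not tested.

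**Figure D4:**
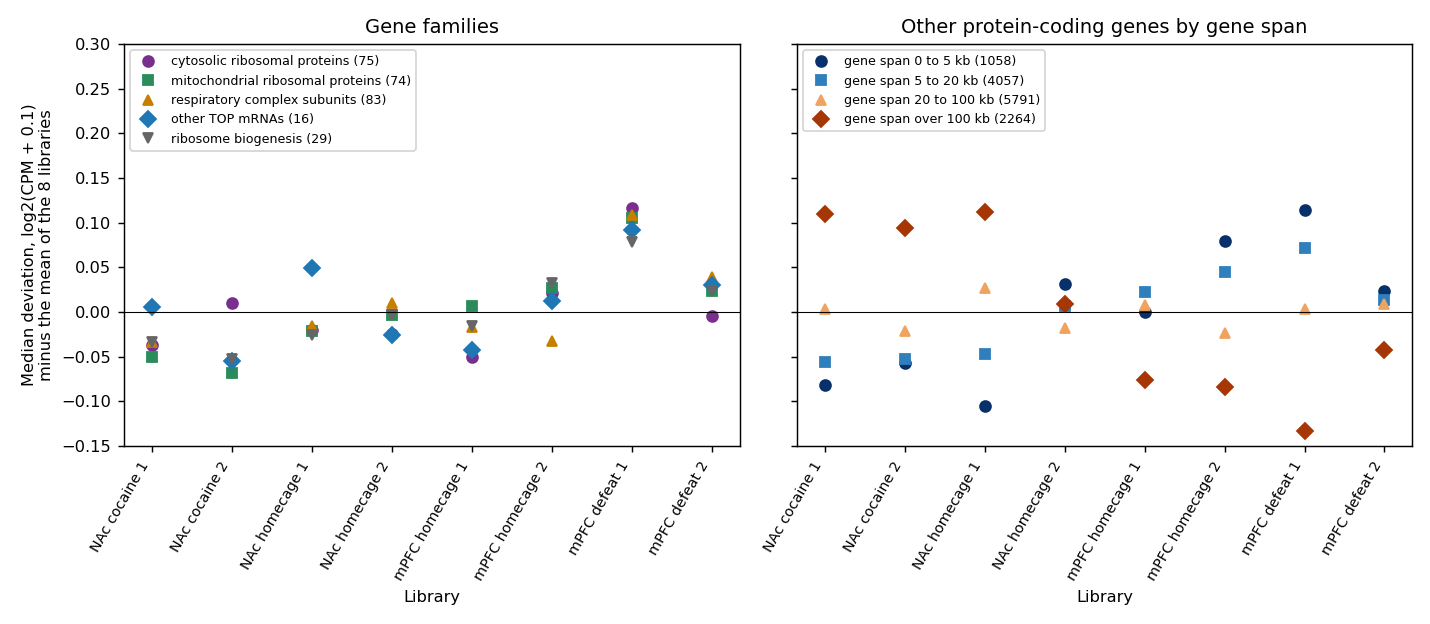
Median deviation from a gene's mean over the 8 libraries, as log2(CPM + 0.1), for 5 gene families (left) and for other protein-coding genes in 4 classes of gene span (right), per library, with the number of genes in brackets. In the first defeat library all 5 families lie between 0.08 and 0.12 and the span classes spread from -0.13 for the longest genes to 0.11 for the shortest.

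The genes that serve these mRNAs were counted in the same fit. Of the ribosomal proteins whose symbols fall outside the pattern, Rps3a1, Fau and Rack1 were tested, with log2 fold changes of 0.00 (0.0007), 0.14 and 0.00 (0.0038), and 0 of 3 passed. Rpl36al had 62 counts and Rps27rt 0. Other TOP mRNAs, which encode elongation factors and similar proteins, were positive in 13 of 16 (median 0.06), with 0 passing. Ribosome biogenesis genes were positive in 24 of 29 (median 0.06) and respiratory complex genes in 77 of 87 (median 0.09). Mitochondrial ribosomal proteins were positive in 46 of 74 (median 0.02), with 0 passing in each of these lists by edgeR. At an unadjusted p under 0.05, 13 respiratory complex genes were higher and 0 lower, beside 3.79% and 3.36% of all genes. For other TOP mRNAs these were 1 and 0, for ribosome biogenesis genes 2 and 0, and for mitochondrial ribosomal proteins 0 and 0. Both defeat libraries were above both home-cage libraries in 50 of the 87 respiratory complex genes and below in 2, beside 16.4% and 17.8% of all genes. The counts were 5 and 0 for other TOP mRNAs, 12 and 1 for ribosome biogenesis genes, and 14 and 8 for mitochondrial ribosomal proteins. Among 16 genes that regulate TOP mRNAs, 6 were positive, and Eif4ebp1 (-0.24) was lower at an unadjusted p under 0.05. The 1 gene that passed was Rheb, the small GTPase that activates mTOR. It was at 51.8 and 47.7 CPM in home cage and at 72.8 and 71.8 CPM after defeat, a log2 fold change of 0.54 (SE 0.08, edgeR adjusted p = 9.96e-07). Mtor (-0.03) and Larp1 (-0.02) had changes smaller than their standard errors.

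The change after defeat was also described by features of the genes. Log2 fold change after defeat had a median of 0.10 in the 35 genes with a pyrimidine tract, 30 of them positive, and 0.04 in the 23 genes with a window and no tract, 19 of them positive. It was 0.11 in the 39 genes with the shorter merged exons and 0.04 in the other 39, 0.04 in the 28 snoRNA hosts and 0.07 in the other 50, and 0.07 for the large and 0.03 for the small subunit. These splits overlap one another, and their differences were not tested.

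The second comparison set cocaine conditioning against home cage in NAc. No gene passed there, neither among the 78 nor among the 18418 tested by edgeR (0%), and by DESeq2 4 genes passed, 0 of them ribosomal. At an unadjusted p under 0.05 there were 0 of the 78, beside 1.15% of all genes, and 0 by DESeq2 as well. The log2 fold change was positive in 44 of 78, beside 47.6% of all genes, with a median of 0.01 beside -0.01 over all genes. Groups did not overlap in 8 genes that were higher and 11 that were lower after cocaine, beside 11.8% and 11.9% of all genes.

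The most positive were Rps29, Rpl41 and Rpl37, which encode short, basic proteins. Rps29 was at 3.83 and 4.32 CPM in home cage and at 4.43 and 6.58 CPM after cocaine, and the groups did not overlap (log2 fold change 0.43, SE 0.23). Rpl41 was at 36.5 and 42.0 CPM in home cage and at 39.8 and 53.8 CPM after cocaine (0.26, SE 0.18). Rpl37 was at 10.6 and 13.3 CPM in home cage and at 11.7 and 16.8 CPM after cocaine (0.25, SE 0.22). All 3 were highest in the second cocaine library. Without that library the log2 fold change was -0.03 for Rpl37, 0.02 for Rpl41 and 0.12 for Rps29.

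The most negative were Rpl22l1, Rps6 and Rps2. Rps6 was at 57.4 and 58.6 CPM in home cage and at 53.8 and 51.4 CPM after cocaine, lower in both, with a log2 fold change of -0.14 (SE 0.08, 95% interval -0.34 to 0.06). Rps2 was at 118 and 118 CPM in home cage and at 111 and 104 CPM after cocaine (-0.14, SE 0.09). Rpl22l1 was at 2.63 and 2.95 CPM in home cage and at 2.54 and 2.48 CPM after cocaine (-0.15, SE 0.14). None of these passed in edgeR (adjusted p = 1 for each).

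Of the genes chosen by role, Rps4x also had both cocaine libraries lower (-0.10, SE 0.07), while Rpsa (-0.01), Rps14 (-0.03), Rps27 (-0.02), Rps27a (0.01), Rpl10 (-0.02), Rpl39 (0.00), Rpl22 (-0.06), Rpl7l1 (-0.04), Rpl3 (0.05), Rpl3l (0.01), Rps27l (-0.12) and Rps10 (-0.11) had log2 fold changes smaller than their standard errors. So did Rplp0 (0.05), Rplp1 (-0.08) and Rplp2 (0.22). For 70 of the 78 the 95% interval lay within 1.5-fold, beside 56.7% of all genes, and for 75 within 2-fold, beside 77.2%. Other TOP mRNAs were positive in 2 of 16 (median -0.03), ribosome biogenesis genes in 11 of 29 (median -0.02) and respiratory complex genes in 29 of 87 (median -0.04). Mitochondrial ribosomal proteins were positive in 21 of 74 (median -0.04) and regulators of TOP mRNAs in 4 of 16 (median -0.03), with 0 passing in each of these lists. Rheb had a log2 fold change of 0.23 (SE 0.08, edgeR adjusted p = 1).

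The split of the NAc libraries by number was also looked for in these genes. The log2 ratio of the library numbered 1 to that numbered 2 had the same sign after cocaine and in home cage in 48 of 78 genes (61.5%), beside 72.6% of 18284 tested genes. Across the 78 genes the ratios of the 2 groups had a Pearson r of 0.60 and a Spearman rho of 0.43, given as a description over genes that share libraries. With the 75 genes above 1 CPM r was 0.48. The ratio was 0.77 and 0.72 in Rpl3l and -0.64 and -0.62 in Rps10 (cocaine first). Rps10 and Rpl3l had the fewest counts of the 78, 252 and 430 over all libraries. The ratio of the first to the second defeat library was 0.67 in Rpl3l and 1.06 in Rps10. Between the mPFC home-cage libraries it was -0.15 and 0.06. In Rpl37 the ratio was -0.52 and -0.32 in NAc and 0.14 between the defeat libraries. In Rps27 it was 0.22 and 0.47 in NAc and 0.12 between the defeat libraries. In Rplp2 it was 0.03 after cocaine and 0.78 in home cage, so that only the home-cage libraries differed.

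The third comparison set NAc against mPFC in home-cage mice. The regions differed in 2262 of 18300 genes by edgeR, 12.4% of those tested, and 0 of the 78 passed, the smallest adjusted p being 0.0908. At an unadjusted p under 0.05 3 were higher in NAc and 0 lower, beside 17.1% and 14.4% of all genes, and by DESeq2 0 passed and 1 was under an unadjusted 0.05. Log2 fold changes were positive in 39 and negative in 39 of the 78, beside 50.9% positive over all genes, with a median of 0.00 (-0.0016) beside 0.01 over all genes. Groups did not overlap in 17 that were higher and 19 that were lower in NAc, beside 32.2% and 31.2%. The 95% interval lay within 1.5-fold for 71 of 78, beside 40.3% of all genes, and within 2-fold for 77, beside 66.2%. Region and any batch between the 2 deposited tables cannot be told apart.

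The tissue labels were checked in the same fit, in which 10 of 12 striatal markers passed as higher in NAc and 3 of 9 cortical markers as lower. Of the ribosomal protein genes, Rps26 was at 51.2 and 51.7 CPM in NAc and at 42.4 and 41.9 CPM in mPFC, a log2 fold change of 0.29 (SE 0.09, edgeR adjusted p = 0.0908). Rps12 was at 23.2 and 23.0 CPM in NAc and at 18.9 and 19.5 CPM in mPFC (0.26, SE 0.09, edgeR adjusted p = 0.123). Rpl30 was at 36.5 and 32.0 CPM in NAc and at 28.4 and 28.1 CPM in mPFC (0.28, SE 0.10, edgeR adjusted p = 0.139). Both NAc libraries were higher in all 3 genes, and in Rps26 and Rps12 the libraries of a region lay close together. With all 8 libraries in 1 fit, which shares the estimate of spread, Rps12 (0.27, edgeR adjusted p = 0.0241) and Rps26 (0.29, edgeR adjusted p = 0.0366) passed, among 4654 genes in all.

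The most positive in NAc were Rpl3l, Rpl22l1 and Rps27. Rpl3l was at 0.548 and 0.333 CPM in NAc and at 0.309 and 0.344 CPM in mPFC (0.44, SE 0.33). Rpl22l1 was at 2.63 and 2.95 CPM in NAc and at 2.25 and 2.15 CPM in mPFC, without overlap (0.34, SE 0.16), while its main gene Rpl22 had a log2 fold change of 0.13 (SE 0.14). Rps27 was at 21 and 15.2 CPM in NAc and at 15.2 and 13.9 CPM in mPFC (0.31, SE 0.18). Without the NAc library numbered 1 the log2 fold change was 0.03 for Rpl3l and 0.06 for Rps27.

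The most negative were Rpl29, Rpl17 and Rpl4, all of the large subunit. Rpl29, known for heparin binding, was at 86.2 and 92.9 CPM in NAc and at 95.6 and 117 CPM in mPFC (-0.25, SE 0.13). Rpl17 was at 57.7 and 51.5 CPM in NAc and at 61.7 and 66.3 CPM in mPFC (-0.23, SE 0.10). Rpl4 was at 184 and 183 CPM in NAc and at 205 and 217 CPM in mPFC (-0.20, SE 0.10). The groups did not overlap in these 3 genes, and none passed (edgeR adjusted p = 0.268, 0.200 and 0.247).

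Of the genes chosen by role, Rplp0 (-0.15, SE 0.10), Rpl7l1 (-0.15, SE 0.10) and Rpl10 (-0.09, SE 0.09) had both NAc libraries lower. Rplp1 (0.13, SE 0.10), Rps6 (0.09, SE 0.09), Rps27a (0.05, SE 0.09) and Rpl39 (0.07, SE 0.14) had both higher. Rpsa (-0.04), Rps14 (-0.04), Rps4x (0.00), Rpl3 (-0.02), Rplp2 (0.08), Rps27l (0.19) and Rps10 (0.10) overlapped between regions. The calls changed when either home-cage NAc library was left out, which leaves that group with 1 library. Without that numbered 1, 3 passed, Rpl17 (-0.31), Rplp2 (-0.36) and Rps26 (0.30), while 5518 genes passed in all. Without that numbered 2, 8 passed, Rpl30, Rpl35a, Rplp2, Rps26 and Rps27 as higher and Rpl29, Rpl37 and Rps15a as lower in NAc, while 8048 genes passed in all. Without either mPFC home-cage library 0 genes passed in all. Rplp2 passed in both cases with opposite signs, at -0.36 and 0.41.

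Among related genes in this comparison, 1 of 29 ribosome biogenesis genes passed, Rrp1b (1.03, SE 0.11, edgeR adjusted p = 0.00912), which encodes a nucleolar protein. Of 16 regulators of TOP mRNAs, 2 passed, a share close to the 12.4% of all genes. Both were lower in NAc. They were Deptor, an inhibitor of mTOR (-1.82, SE 0.11, edgeR adjusted p = 0.00262), and Eif4ebp1, a repressor of cap-dependent translation (-1.73, SE 0.33, edgeR adjusted p = 0.0328). Of 87 respiratory genes 1 passed, and of 74 mitochondrial ribosomal proteins and 16 other TOP mRNAs 0 passed by edgeR, with 6 (3 in each direction) and 1 (lower) at an unadjusted p under 0.05, beside 17.1% of all genes higher and 14.4% lower.

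The last comparison asked whether the response to cocaine in NAc differed from the response to defeat in mPFC, as a contrast over the 8 libraries. No gene of the 18783 tested passed in edgeR (0%), the 78 included. At an unadjusted p under 0.05 0 of the 78 were higher and 3 lower, beside 1.38% and 0.831% of all genes. By DESeq2 0 of the 78 passed and 1 was under an unadjusted 0.05, and by limma-voom 0 and 3. The difference, cocaine response minus defeat response, was positive in 22 of 78 genes, beside 49.9% of all genes, with a median of -0.06 beside 0.00 (-0.0005) over all genes. Without the first defeat library the median was 0.00 (0.0015), with 39 positive, and without the second it was -0.13, with 12 positive.

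The unadjusted calls were Rps26 (-0.31, SE 0.11), Rps21 (-0.25, SE 0.09) and Rps25 (-0.23, SE 0.10), each with an edgeR adjusted p of 1. Rps21 had been higher by 0.27 after defeat and differed by 0.02 after cocaine, and Rps26 by 0.24 and -0.07. The most negative differences were in Rps27l (-0.43, SE 0.33), Rpl22l1 (-0.37, SE 0.17) and Rps26, and the most positive in Rps29 (0.31, SE 0.27), Rplp2 (0.15, SE 0.35) and Rps10 (0.13, SE 0.60). Rps6 had a difference of -0.17 (SE 0.11). Among the other genes chosen by role, Rplp0 (0.09), Rpl3 (0.01), Rpl3l (0.11), Rps27a (0.02), Rpsa (-0.03), Rps14 (-0.03), Rpl10 (-0.05), Rpl7l1 (-0.06), Rps4x (-0.10), Rpl39 (-0.11), Rpl22 (-0.15) and Rps27 (-0.20) had differences within 1 standard error of 0, and Rplp1 (-0.13, SE 0.13) was just beyond it. The 95% interval of the difference lay within 1.5-fold for 66 of 78 genes, beside 49.6% of all genes, and within 2-fold for 75, beside 70.8%.

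**Figure D5:**
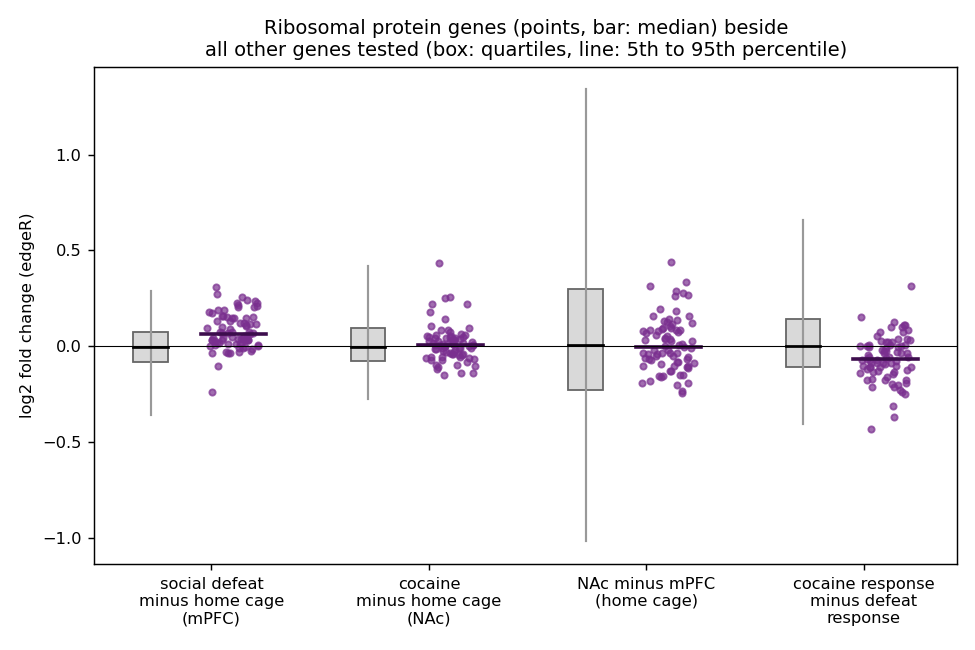
Log2 fold change in the 4 comparisons for the 78 ribosomal protein genes (points, with a bar at their median) and for all other genes tested (box from the 25th to the 75th percentile, line from the 5th to the 95th). The points lie within 0.45 of 0 in every comparison, and between the regions the other genes spread from -1.02 to 1.34.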

How the data were processed

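Total RNA libraries of NAc and mPFC were analysed from the deposited tables, which give raw counts by gene symbol for each region. The submitters' processing notes name mm10, STAR 2.7.1a and featureCounts as what the authors used. How strand, introns and multiply aligned reads were treated is not given in the sources used here. Counts were tested in R 4.3.3 with edgeR 4.0.16 (filterByExpr, TMM, estimateDisp, glmQLFit, glmQLFTest), with Benjamini-Hochberg adjustment over all genes tested and a threshold of 0.05. Groups were read from the library titles in NAc and from the treatment label in mPFC. Each comparison was fitted on its own 4 libraries, or on all 8 for the difference of responses. The standard error (SE) of a log2 fold change was derived from the quasi-likelihood F, as its size over the root of F, and 95% intervals use the fit's degrees of freedom. Library totals of 111901829 to 179479978 counts set the depth. Levels are CPM with TMM factors over the 8 libraries. With 2 libraries per group an exact permutation test could not pass the threshold, so no gene was tested alone. Lengths and overlaps came from GENCODE M21, which matched 33047 symbols, and start windows from RefSeq. The fits were tested on simulated counts.

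The 78 genes and the lists were chosen with earlier results of these data known. Named genes were those that passed, the 3 most positive and 3 most negative of each comparison, 20 chosen by role, and the 3 highest and 3 lowest per length. Rps12, Rps25, Rpl12, Rpl30 and others named outside this rule were chosen after their values were seen. The alternatives were RLE size factors, no low-count filter, DESeq2 1.42.0, limma-voom (limma 3.58.1), another set of libraries in the fit, a replicate block in NAc, and leaving out each library.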

Additional observations from a re-analysis of the deposited data

How the results depend on the processing

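Of the counts of the 78 genes that passed and their median log2 fold changes, each kept its value within 1.5 times or within the spread between replicates under another normalization, no low-count filter and DESeq2, and under limma-voom for the difference of responses. Counts at an unadjusted p under 0.05 moved more, from 3 to 1 by DESeq2 between the regions and in the difference of responses, and from 11 to 4 after defeat with all 8 libraries in 1 fit. No share of all genes at an unadjusted p was taken for any alternative fit, the replicate block included. With all 8 libraries in 1 fit, 2 genes passed between the regions, where 0 did before. Leaving out 1 library at a time, 0 to 3 genes passed after defeat and 0 to 8 between the regions. The median log2 fold change ran from 0.0087 to 0.1298 after defeat, and the median difference of responses from -0.125 to 0.0015. Sign changes were followed only for the 3 most positive and 3 most negative genes of each comparison, and other genes are not listed here. Those that changed sign without 1 library ranged, after defeat, from -0.8462 to 0.2037 (Rps10), -0.4681 to 0.1963 (Rpl3l) and -0.159 to 0.0931 (Rpl13a). After cocaine Rpl37 ranged from -0.0302 to 0.4898. In the difference the ranges were -0.3157 to 0.7365 (Rps10), -0.1849 to 0.5898 (Rplp2) and -0.0047 to 0.5725 (Rps29). These settings hold fewer libraries, and the cause was not tested further. Where a group keeps 1 library, that library is assumed to vary like the others. Over all genes, 127 passed after defeat and 5 with all 8 libraries in 1 fit, and 2262 passed between the regions, 3683 by DESeq2 and 4654 with all 8 libraries. The numbers in the NAc titles are not said to mark a shared animal or day. With the number as a replicate block, 0 of the 78 passed after cocaine, 3 were under an unadjusted p of 0.05, the median was 0.0069 and 38 genes passed in all, and with RLE size factors as well these were 0, 4, 0.0087 and 64. Over span in place of exons, the 90th over the 10th percentile of level was 17.38 instead of 13.55. With 2 libraries per group, differences smaller than the intervals given could not be resolved.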

Other observations

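Among the canonical ribosomal proteins, 2 rows had 0 counts in all 8 libraries. Rpl13 shares its strand with the overlapping gene Gm20388 over 2895 bases. Rpl35 overlaps Wdr38 over 4045 bases and Arpc5l over 277 bases, both on the opposite strand, and 84.05% of its 50-base windows occur in transcripts of other genes. Wdr38 was at 0.290 to 0.564 CPM and Arpc5l at 26.3 to 30.8 CPM over the 8 libraries. Rpl13a, which overlaps Gm45713 on the same strand over 2840 bases, was counted at 5.38 to 6.44 CPM, with Gm45713 at 0.0684 to 0.271 CPM. Nudt3, the other partner of the Rps10 read-through gene, was at 41.2 to 70.6 CPM, and at 42.1 ± 1.36 CPM after cocaine, 47.9 ± 1.05 CPM in NAc home cage, 62.4 ± 11.6 CPM in mPFC home cage and 62.7 ± 2.03 CPM after defeat (SD, n = 2).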
